A study of Mus musculus with 764 samples.

Results

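The genes of the T follicular helper program were measured in CD4+ T cells that produce IL-10, sequenced 1 by 1, from the spleen and the small intestine (SI). The 9 genes are Cxcr5, Bcl6, Il21, Sh2d1a, Tox2, Icos, Il4, Ascl2 and Slamf6, chosen by name from the 23997 gene rows of the count tables, and 8 of the 9 had a read in at least 1 cell that was analysed. All 764 cells came from mice that carry an IL-10 eGFP and a Foxp3 mRFP reporter, a green and a red fluorescent protein that report the activity of Il10 and of Foxp3. Every mouse had received injections of anti-CD3, an antibody that stimulates T cells, into the abdominal cavity on alternate days and was killed a few hours after the last injection, so no untreated group is compared here. The animals were adult, age- and sex-matched littermates, and their number and any pooling are not given in the sources used here. The sort took eGFP+ CD4+ T cells and included Foxp3+ cells. Peyer's patches, the follicle-bearing lymphoid tissue of the gut wall, were removed before cells were collected from the intestinal epithelium and lamina propria. Each sample is 1 cell and no label names an animal, so each tissue counts as 1 sample, and no p-value is given.

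T follicular helper cells are the CD4+ T cells that help B cells in the follicles of spleen and lymph nodes. The transcription factor BCL6 directs the program, the chemokine receptor CXCR5 leads the cells towards CXCL13 in the follicle, ICOS and the SLAM receptors with their adaptor SAP carry contact signals with B cells, and IL-21 and IL-4 are the cytokines delivered. T follicular regulatory cells share CXCR5 and BCL6 and also carry FOXP3. Several of the genes are not particular to follicular cells, since activated T cells of many kinds use ICOS, and T helper 2 cells make IL-4.

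After removal of cells with few reads and of cells called cycling, 137 SI and 399 spleen cells were kept. The spleen cells filled 3 sets of wells, namely columns 1-12 of plate p1 (132 kept cells), columns 13-24 of plate p1 (145) and plate p2 (122), and all SI cells stood on plate p2. These sets show how far the same tissue varied between positions, and the labels do not say whether they came from different animals. The median depth was 324546 reads on genes per kept SI cell and 315920 to 366238 in the spleen sets. At least 1 of 7 T cell genes reached 10 reads in every kept cell, and their summed level ran from 3266 to 12729 CPM in SI and from 2539 to 18345 CPM in spleen cells. CPM is the counts of a gene per 1000000 reads on genes of the cell, and a cell is said to have a gene when it holds at least 10 reads of it. Intervals of shares are exact (Clopper-Pearson) at the 95% level and cover counting error only. The log2 ratio of a gene is log2 of the mean CPM + 1 in SI over that in spleen. A gene is called lower in SI when this ratio is -1 or less and its SI mean is below all 3 spleen sets, and higher by the mirrored rule. Of 11267 genes with a mean of at least 1 CPM, 18.1% were lower by this rule and 9.12% were higher, and their median ratio was -0.25.

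Of the 8 members with reads, 4 were lower in SI (Cxcr5, Slamf6, Il4 and Il21), 2 were higher (Tox2 and Bcl6) and 2 passed neither rule (Sh2d1a and Icos). Their median log2 ratio was -1.13. When the mean CPM of each tissue was divided by a DESeq2 size factor of that tissue, the median of the tested genes moved by 0.18. The shares over all genes became 14.5% lower and 11.5% higher, and the same members passed in each direction. No factor was set for single cells. On plate p2, which held cells of both tissues, the log2 ratios were -8.56 for Cxcr5, -4.10 for Slamf6, -1.91 for Il4, -0.99 for Il21, 1.09 for Tox2 and 1.10 for Bcl6.

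**Figure D1:**
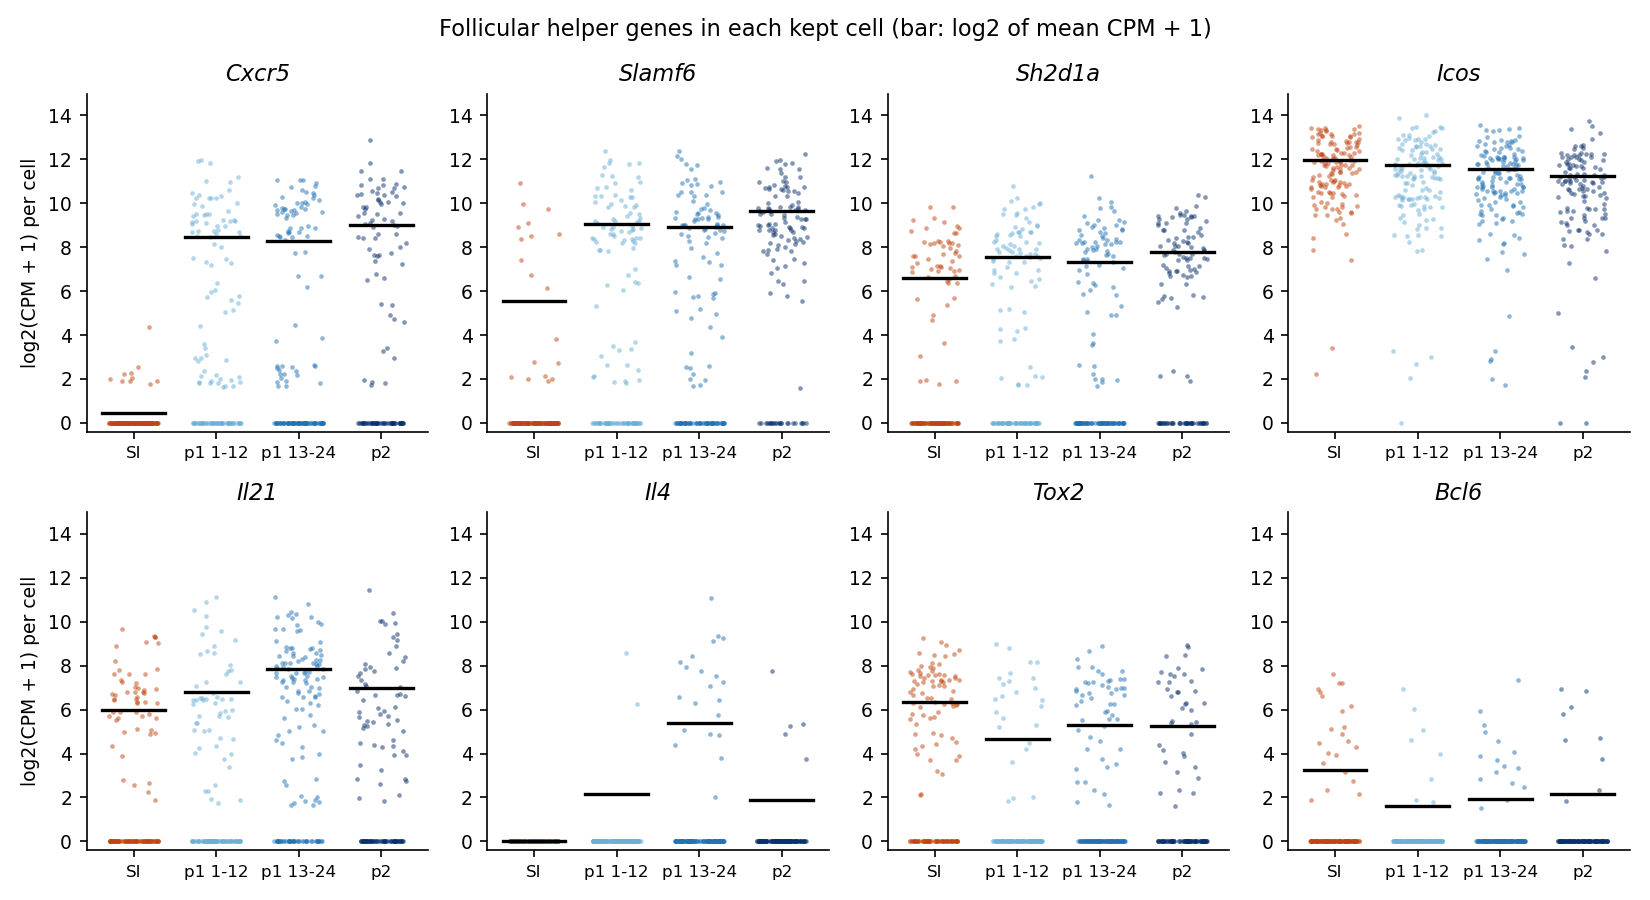
Level of each member in every kept cell as log2(CPM + 1), in SI and in the 3 spleen well sets (p1 1-12, p1 13-24, p2). Each point is 1 cell and the bar is log2 of the mean CPM + 1. Cxcr5 and Slamf6 show many high cells in each spleen set and few or none in SI, whereas Icos is high nearly everywhere.

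Cxcr5 encodes the receptor that brings T cells into the follicle. Its mean was 0.357 CPM in SI, against 355, 308 and 510 CPM in p1 columns 1-12, p1 columns 13-24 and p2 of the spleen. The lowest cell of every set was at 0, the medians were 0 in SI and 5.15, 0 and 24.5 CPM in the spleen sets, and the highest cells reached 19.8 CPM in SI and 4003, 2157 and 7546 CPM in the spleen. No SI cell had 10 reads, which allows a share of up to 2.19%, whereas 43.2%, 35.9% and 49.2% of the cells of the spleen sets did. The SI share therefore lay outside the intervals of all 3 spleen sets, the lowest of which began at 28.1%. In SI, 10 cells held a total of 14 reads (exact Poisson interval 7.65 to 23.5), and 169 spleen cells had the gene with a median of 698 CPM among them. The log2 ratio was -8.15, and it ran from -8.56 to -7.83 against the spleen sets taken singly. It depends on the pseudocount because the SI level is so low, and was -9.72 with 0.1 CPM and -5.25 with 10 CPM added. Spleen cells with and without Cxcr5 had a similar median depth, 353298 and 354128 reads.

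Since CXCR5 also marks B cells, genes of B cells were read in the same cells. Of 10 B cell genes, 1 or more reached 10 reads in 4.14% (interval 1.68 to 8.35%) of the 169 spleen cells with Cxcr5, in 7.39% (4.36 to 11.6%) of the other spleen cells and in 13.9% of SI cells. Their summed level ran from 0 to 958 CPM in the Cxcr5 cells, with a median of 0, and 4 of the 10 genes were at 0 there. Of 7 myeloid genes, 1 or more reached 10 reads in 32.1% (24.4 to 40.6%) of SI cells and 15% (11.7 to 18.9%) of spleen cells, in the latter 12.4% of the cells with Cxcr5 and 17% of those without. Their summed level ran from 0 to 1008 CPM in SI and from 0 to 875 CPM in spleen. In SI 4 of the 7 were at 0, Lyz2 among them, and Cd68 alone reached 10 reads, at 105 CPM against 28.1 CPM in spleen (log2 ratio 1.86). Epithelial genes reached 10 reads in 8.03% of SI and 9.27% of spleen cells. Without the cells that had any of these markers the log2 ratio of Cxcr5 was -8.22.

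Slamf6 encodes Ly108, a SLAM receptor that binds the same receptor on B cells. Its mean was 45.8 CPM in SI and 524, 485 and 804 CPM in the spleen sets, in the order above. The median SI cell was at 0 and the highest at 1923 CPM, while the medians of the spleen sets were 79.2, 35 and 471 CPM and their highest cells lay between 4852 and 5325 CPM. In SI, 11 of 137 cells (8.03%, interval 4.08 to 13.9%) had the gene, and in the spleen sets 52.3%, 51% and 80.3% did. The share in p2 lay above the intervals of both p1 sets, which ended at 61% and 59.4%. The 11 SI cells had a median of 393 CPM against 584 CPM in the 241 spleen cells with the gene, and 5 cells held 71.9% of the SI reads. The log2 ratio was -3.67, and it was -5.47 when the 5 highest cells of each tissue were left out.

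Sh2d1a encodes SAP, the adaptor that carries the signal of SLAM receptors. Its mean was 96.8 CPM in SI and 188, 161 and 217 CPM in the spleen sets. The median cell was at 0 in SI and at 25.5, 3.03 and 120 CPM in the spleen sets, and the highest cells reached 925 CPM in SI and 1336 to 2410 CPM in spleen. The shares of cells with the gene were 36.5% (28.4 to 45.1%), 49.2%, 44.1% and 63.9%, so the SI interval overlapped those of p1 columns 1-12 (40.4 to 58.1%) and p1 columns 13-24 (35.9 to 52.6%). The log2 ratio of -0.94 did not reach the rule. It was -1.16 against p2 alone and -0.72 against p1 columns 13-24.

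SAP also serves some other SLAM receptors and the kinase Fyn. Of 7 genes taken from the SLAM family and Fyn, all tested, 2 were higher in SI and 0 lower, with a median log2 ratio of 0.29. Over all tested genes 9.12% were higher and 18.1% lower. Cd244 (2B4) had a mean of 96.3 CPM in SI and 0.0428 CPM in spleen, a log2 ratio of 6.54, and Slamf7 had 211 and 48.8 CPM, a ratio of 2.09. Slamf1 (0.52) lay above all spleen sets and Ly9 (-0.62) below them, without reaching the rule.

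Icos encodes the costimulatory receptor that B cell ICOS ligand engages. Its mean was 3986 CPM in SI and 3459, 3034 and 2429 CPM in the spleen sets, and 98.5%, 96.2%, 96.6% and 93.4% of the cells had the gene. The median cell was at 3371 CPM in SI and at 2492, 2257 and 1901 CPM in the spleen sets. SI cells ran from 3.64 to 11921 CPM and spleen cells from 0 to 16388 CPM, so the cells of the tissues overlapped over nearly the whole range. The log2 ratio of 0.41 placed SI above every spleen set and did not reach the rule.

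**Figure D2:**
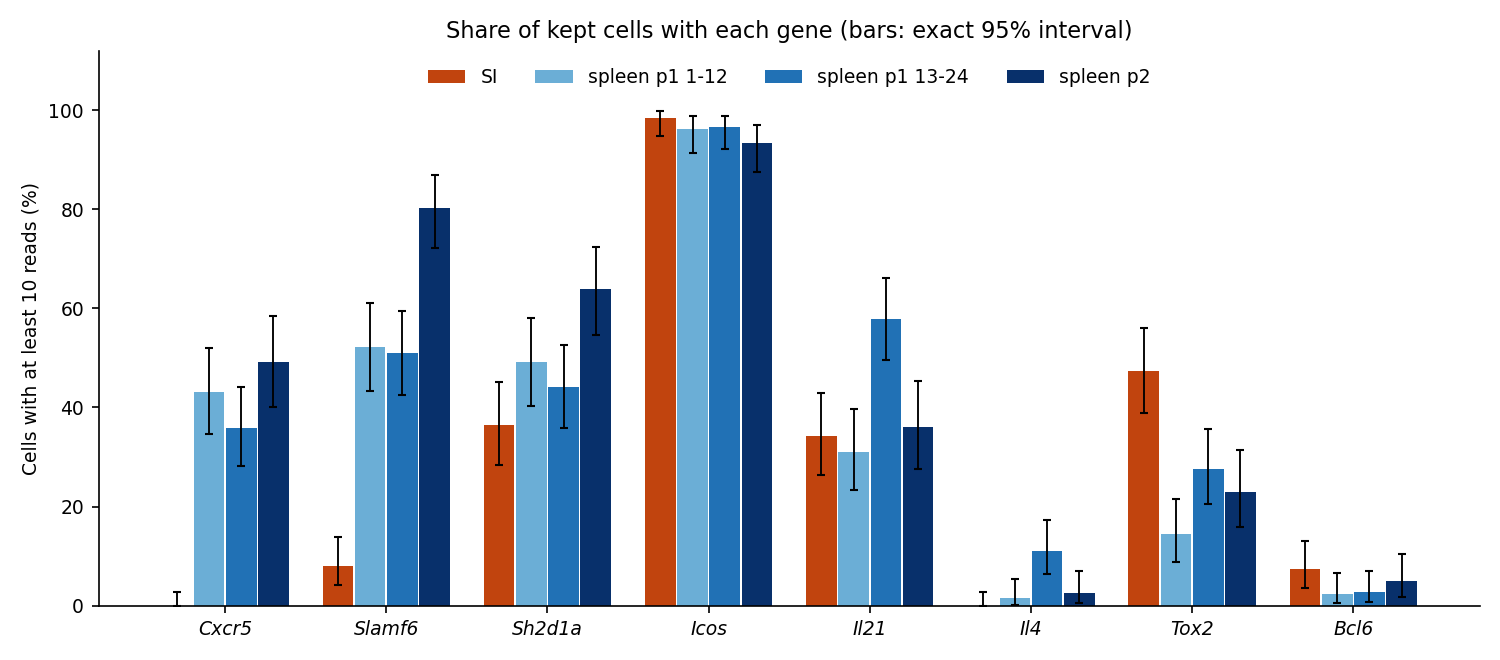
Share of kept cells with at least 10 reads of each member, in percent, with exact 95% binomial intervals, in SI and the 3 spleen well sets. The SI bars of Cxcr5 and Il4 are at 0, the SI bar of Tox2 stands above all spleen bars, and Il21 and Il4 are highest in p1 columns 13-24.

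Il21 encodes the cytokine IL-21, which acts on B cells and on T cells. Its mean was 62.6 CPM in SI and 109, 229 and 125 CPM in the spleen sets. The median cell was at 0 in SI and at 0, 95.1 and 2.79 CPM in the spleen sets, and the highest cells reached 821 CPM in SI and 2208 to 2811 CPM in the spleen. Cells with the gene made up 34.3% (26.4 to 42.9%) of SI and 31.1%, 57.9% and 36.1% of the spleen sets, so SI lay between spleen sets by share and below them by mean. Among cells with the gene the median was 106 CPM in SI and 201 CPM in spleen. The log2 ratio was -1.32 over all spleen cells. It was -1.85 against p1 columns 13-24, -0.80 against p1 columns 1-12 and -0.99 against p2. Without p1 columns 13-24 it was -0.89, and Il21 no longer passed the rule.

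Il4 encodes IL-4, which follicular helper cells, T helper 2 cells and others make. No read of it was found in any of the 137 SI cells, which allows up to 2.19% of cells, and 21 of 399 spleen cells (5.26%, interval 3.29 to 7.93%) had the gene. The means were 3.5, 41.2 and 2.75 CPM in the spleen sets, every median cell was at 0, and the highest cells stood at 387, 2155 and 218 CPM. Of the 21 cells, 2 stood in p1 columns 1-12, 16 in p1 columns 13-24 and 3 in p2. The summed spleen level of 15.8 CPM was at least 234-fold higher than the floor of 3 reads over all kept SI cells (0.0677 CPM). That level rested on few cells, since 5 cells held 62.5% of the 2206 spleen reads, and Il4 no longer passed the rule without the 5 highest cells of each tissue and each set. The log2 ratio was then -2.83, but 5 cells had held 100% of the reads in p1 columns 1-12 and in p2, whose means fell to 0.

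Il21 and Il4 were read in the same spleen cells more often than their separate shares give (below), and the DNA before their starts is shown for this reason. The RefSeq promoter table used here held an entry for 6 of the 9 members (build GRCm38.p6), and the 250 bases before the start were searched for GGAAA, the core bound by NFAT factors, which T cell receptor signalling brings into the nucleus. Either strand counted, so TTTCC is the same match, and matches are in capitals.
Il21, chr3:37232637-37232886, minus strand: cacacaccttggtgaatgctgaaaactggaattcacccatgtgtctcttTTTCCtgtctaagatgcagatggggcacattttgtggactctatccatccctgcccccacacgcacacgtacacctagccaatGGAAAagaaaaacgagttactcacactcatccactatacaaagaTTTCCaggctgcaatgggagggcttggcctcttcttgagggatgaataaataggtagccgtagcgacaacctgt
Il4, chr11:53618666-53618915, minus strand: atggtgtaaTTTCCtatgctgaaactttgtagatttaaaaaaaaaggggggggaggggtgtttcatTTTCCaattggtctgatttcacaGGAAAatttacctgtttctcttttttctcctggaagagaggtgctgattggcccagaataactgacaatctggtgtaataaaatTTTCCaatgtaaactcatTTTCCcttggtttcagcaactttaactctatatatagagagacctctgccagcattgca
The Il21 window holds 3 matches and the Il4 window 5. The Bcl6 window holds 1, and the windows of Tox2, Ascl2 and Slamf6 hold 0. Where a gene had more than 1 entry (Tox2 5, Bcl6 2, Il4 2), only the entry nearest its start is counted here. The core is in 55.6% of all 32851 promoter windows of this length, so its presence is common, and a match is only a run of letters. The windows were also searched for a TCF core (CTTTG), an E-box (CANNTG) and a STAT and BCL6 core (TTCNNNGAA). In this order, Il21 held 1, 2 and 0 matches and Il4 held 1, 1 and 0. They are in 48.6%, 66.2% and 7.02% of all windows, and only the NFAT core is marked above.

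Tox2 encodes an HMG-box transcription factor of follicular helper and of chronically stimulated T cells. Unlike Cxcr5 and Slamf6, it was higher in SI, with a mean of 81.5 CPM against 24.2, 38.8 and 37.7 CPM in the spleen sets. The median SI cell was at 17.2 CPM and the median cell of each spleen set at 0, and the highest cells reached 612 CPM in SI and 472 to 512 CPM in the spleen. The gene was in 47.4% (38.9 to 56.1%) of SI cells and in 14.4%, 27.6% and 23% of the spleen sets, none of whose intervals passed 35.6%. The cells with the gene had similar medians, 153 CPM in SI and 120 CPM in spleen. The log2 ratio was 1.25, and it was 0.93 without cells that held a Foxp3 read, where Tox2 no longer passed the rule.

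Bcl6 encodes the repressor that directs the follicular program, and its level was low in both tissues. Its mean was 8.59 CPM in SI and 2.05, 2.8 and 3.48 CPM in the spleen sets, every median was 0, and the highest cell stood at 197 CPM in SI and at 164 CPM in spleen. The gene was in 10 SI cells (7.3%, 3.56 to 13%) and in 3, 4 and 6 cells of the spleen sets, 13 in all (3.26%, 1.75 to 5.51%). The intervals of the tissues overlapped. The log2 ratio was 1.35, and it was 0.95 without the 5 highest cells of each tissue, which held 65.9% of the SI reads and 53.2% of the spleen reads. Bcl6 did not pass the rule then, nor with a pseudocount of 10 CPM (0.54). Ascl2, a basic helix-loop-helix factor that can raise CXCR5, had no read in any kept cell, which allows up to 0.752% of spleen and 2.19% of SI cells.

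The level of 2 members differed in size between spleen well sets. Between p1 columns 13-24 and columns 1-12, Il21 (log2 ratio 1.06) and Il4 (3.23) differed by a log2 ratio of 1 or more in size, as did 14.5% of tested genes. Between p2 and p1 columns 13-24 only Il4 did (-3.49), beside 17.8% of genes, and between p2 and p1 columns 1-12 none of the members did, beside 19.1%. Foxp3, the gene of regulatory T cells, differed too, with 54.5%, 13.1% and 4.1% of the cells in p1 columns 1-12, p1 columns 13-24 and p2 having it. Among cells without Foxp3, Il21 was in 60%, 64.3% and 37.6% of the cells of these sets. Ccr7, the receptor that guides T cells into the T zone, was in 8.33%, 13.1% and 51.6% of their cells. Set and animal cannot be told apart.

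The number of members per cell was lower in SI than in any spleen set. Its mean is the sum of the shares of the single members given above, so it restates them and is no further result. No SI cell had Cxcr5 or Il4, which also limits the SI maximum. SI cells had a mean of 2.32 members and at most 4, and the means of the spleen sets were 2.9, 3.27 and 3.53 with up to 7. At least 4 members were in 11.7% (6.82 to 18.3%) of SI cells and in 31.1%, 43.4% and 45.9% of the spleen sets, whose lowest interval began at 23.3%. At least 5 were in 0 SI cells and 65 spleen cells (16.3%). Without Icos, which nearly every cell had, the mean was 1.34 in SI and 2.27 in spleen. No cell had all 8 members with reads.

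**Figure D3:**
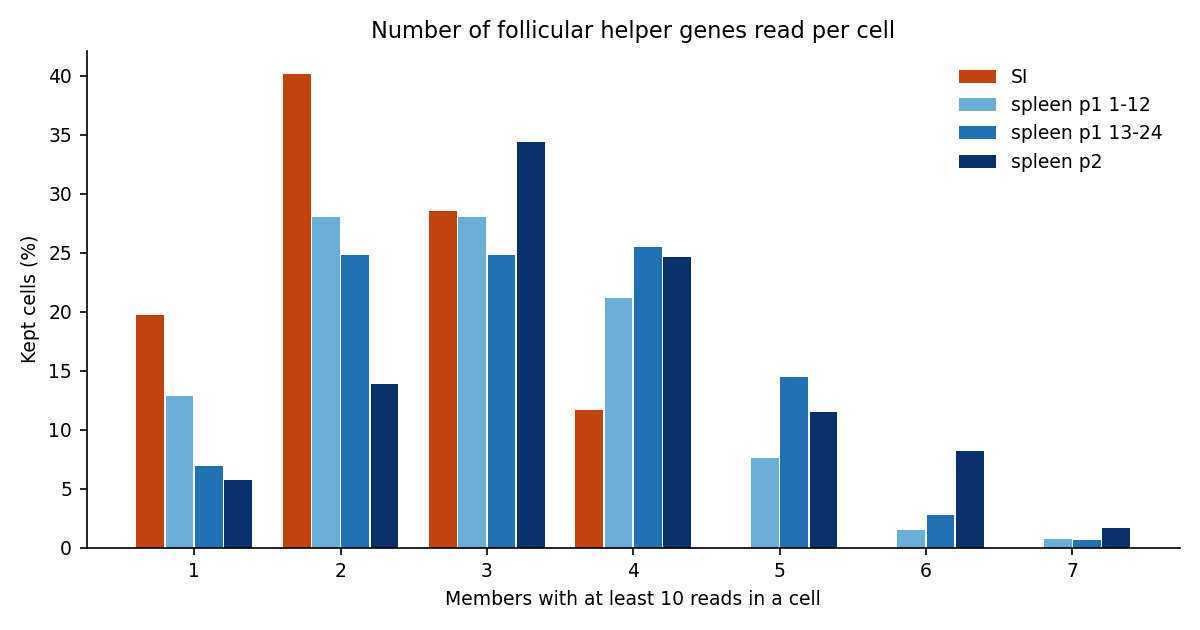
Number of members with at least 10 reads in a cell (x axis) against the percent of kept cells (y axis), for SI and the 3 spleen well sets. The SI distribution ends at 4 members, and every spleen set reaches 7.

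Co-expression was measured in spleen, where 7 members were each in 20 or more cells. Odds ratios were combined within the 3 well sets (Mantel-Haenszel), so a gene that differs between sets does not by itself join another. A pair was called joined at an odds ratio of 2 or more and apart at 0.5 or less, if the direction held in every set. Of 21 pairs, 4 were joined, 1 was apart and 16 were neither. Over all pairs of a measured member with any other gene, 4.71% were joined and 4.2% were apart. The cells come from 1 sample, and these values are descriptions of it.

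The receptors Cxcr5 and Slamf6 were joined. Of 169 cells with Cxcr5, 121 (71.6%) also had Slamf6, where 105 were expected, and the odds ratio was 2.2. The sets gave 33 cells against 29.8 expected, 36 against 26.5 and 52 against 48.2. Of genes set beside Cxcr5, 1.9% were joined with it. Cxcr5, Slamf6 and Sh2d1a were all in 71 spleen cells (17.8%, 14.2 to 21.9%), and with Il21 in 33 (8.27%). SI had 0 cells of either kind, since no SI cell had Cxcr5. Cxcr5 and Il21 shared 80 cells against 69.5 expected (odds ratio 1.62), which did not reach the rule.

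Il4 was joined with Il21 and with Tox2. Of 21 cells with Il4, 16 also had Il21, where 11 were expected (odds ratio 3.16), and 13 had Tox2, where 5.39 were expected (5.66). Most of these cells were in p1 columns 13-24, which held 12 of the 16 and 9 of the 13. Of all genes set beside Il4, 7.02% were joined with it and 8.74% were apart from it. Il4 was apart from Slamf6, with 7 shared cells against 11.6 expected (0.346), and its odds ratio with Cxcr5 was 0.463, with 5 shared cells against 8.08. The fourth joined pair, Sh2d1a and Icos, had 202 cells against 197 expected (3.67), and it rested on the 18 cells without Icos. Icos was joined with 16.3% of genes. At 30 or more reads per cell, 2 pairs were joined and 0 apart, and with every cell thinned to 200000 reads 1 was joined and 0 apart. Il4 was then in fewer than 20 cells, so its pairs were not counted. Cxcr5 and Slamf6 were joined under both settings (2.18 and 2.56), and Sh2d1a and Icos only at 30 reads (3.02), since the thinned value of 2.1 did not hold its direction in every set.

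Bcl6 was in too few spleen cells for the rule. Of its 13 cells, 11 also had Cxcr5, where 5.68 were expected, and 7 had Tox2, where 2.91 were expected. In SI, 1 of the 10 Bcl6 cells had Tox2, where 4.74 were expected.

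**Figure D4:**
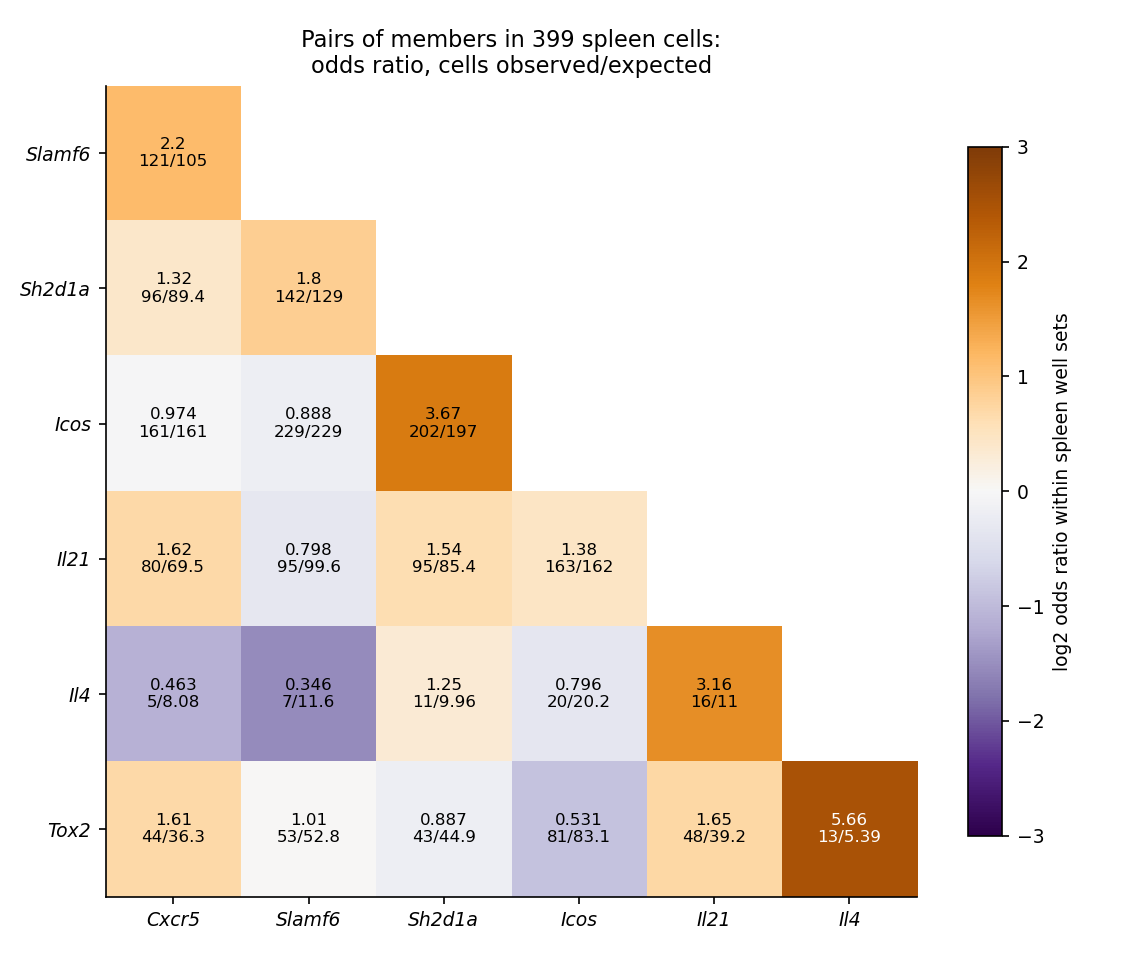
Odds ratio of each measured pair of members in 399 spleen cells, combined within well sets, with the cells observed and expected below it. Colour is the log2 odds ratio. The darkest squares on the joined side are Il4 with Tox2 (5.66) and Sh2d1a with Icos (3.67), and the darkest on the other side is Il4 with Slamf6 (0.346).

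Members were next set beside Foxp3, Il10, cytokine genes and other T cell genes in the same cell. Il21 and Foxp3 were seldom together. Of 96 spleen cells with Foxp3, 8 had Il21 (8.33%, 3.67 to 15.8%), against 53.1% (47.3 to 58.9%) of the other cells, and the odds ratio within sets was 0.0634. Tox2 was in 6.25% of cells with Foxp3 and 26.7% of those without (odds ratio within sets 0.179), and Il4 in 0 of 96 and 6.93%. Of the 96 cells, 72 stood in p1 columns 1-12, where Il4 was in 0 of 72 and 3.33% of the others. In p1 columns 13-24 it was in 0 of 19 and 12.7%, and the Il4 intervals overlapped in each set. Cxcr5 was not rarer in cells with Foxp3, being in 45.8% (35.6 to 56.3%) and 41.3% (35.7 to 47%), so 44 of 399 spleen cells had Cxcr5 together with Foxp3. Slamf6 was in 55.6% and 48.3% in p1 columns 1-12, 52.6% and 50.8% in p1 columns 13-24, and 100% of 5 cells and 79.5% in p2 (odds ratio 1.33), with overlapping intervals in each set. In SI only 5 cells had Foxp3, and 0 of them had Il21. Tox2 went the other way in SI than in spleen, being in 4 of these 5 cells and in 46.2% of the others, with overlapping intervals.

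Of 307 spleen cells with Il10, 47.2% (41.5 to 53%) had Il21, against 26.1% (17.5 to 36.3%) of the 92 others. The sets gave 31.3% and 29.4%, 62.2% and 38.5%, and 47.9% and 18.4%, and only in p2 were the intervals separate. Il10 was in 20 of the 21 Il4 cells. Slamf6 went the other way, with 47% (37.6 to 56.5%) of Il10 cells and 88.2% (63.6 to 98.5%) of the 17 others in p1 columns 1-12. It was in 50.4% and 53.8% in p1 columns 13-24 and in 76.7% and 85.7% in p2, with overlapping intervals in both. The cells were sorted on an Il10 reporter, and 131 of 137 SI cells had Il10, so the same comparison in SI rests on 6 cells.

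Ifng encodes interferon-gamma, the T helper 1 cytokine. In spleen, Il21 was in 62.1% (52 to 71.5%) of cells with Ifng and in 35.5% (30 to 41.2%) of the others, and in SI in 44% (33.2 to 55.3%) and 18.9% (9.44 to 32%). The direction was the same in the 3 spleen sets, with 60.7% and 23.1%, 70.8% and 51.5%, and 48.1% and 32.6%. Slamf6 (37.9% and 68.2%) and Cxcr5 (29.1% and 47%) were in smaller shares of spleen cells with Ifng, with odds ratios within sets of 0.286 and 0.482. Only for Slamf6 in p2 were the intervals of a set separate. All 10 Bcl6 cells of SI had Ifng, and none of the 13 Bcl6 cells of spleen did. Ifng itself was in a larger share of SI than of spleen cells. Bcl6 was in 11.9% (5.86 to 20.8%) of SI cells with Ifng and in 0% (0 to 6.72%) of the others. The spleen shares were 0% (0 to 3.52%) and 4.39% (2.36 to 7.39%). These intervals overlapped within each tissue, and the contrast rests on few Bcl6 cells. In SI, Tox2 was in 18 of 23 cells with Il17a (78.3%, 56.3 to 92.5%), the T helper 17 cytokine, and in 41.2% (32.1 to 50.8%) of the others.

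Pdcd1, the gene of the checkpoint receptor PD-1 that follicular helper cells carry at a high level, was not joined with Cxcr5 (odds ratio 0.615). Of 253 spleen cells with Pdcd1, 37.2% (31.2 to 43.4%) had Cxcr5, against 51.4% (43 to 59.7%) of the others. The direction was the same in each set, with overlapping intervals in each. Spleen shares in this paragraph are pooled over the well sets unless a set is named, and odds ratios are combined within them. Slamf6 was also in a smaller share of Pdcd1 cells, 51.8% and 75.3%, and Il21 in a larger one, 51% and 27.4%. Cxcr5, Pdcd1 and Icos together were in 91 spleen cells (22.8%, 18.8 to 27.2%). Ccr7 went with Slamf6, which was in 90.3% (82.4 to 95.5%) of Ccr7 cells and 51.3% (45.6 to 57%) of the others, and with Cxcr5 (57% and 37.9%). The odds ratios were 6.58 and 2.11. Of the 93 Ccr7 cells, 63 stood in p2, where Slamf6 was in 90.5% and 69.5%. In p1 columns 1-12 Slamf6 was in 100% of 11 cells and 47.9%, and in p1 columns 13-24 in 84.2% and 46%. The Slamf6 intervals overlapped only in p2, and those of Cxcr5 in every set. Gata3, the T helper 2 factor, was in 30.3% of spleen cells and in 13 of the 21 Il4 cells. Of these 13, 12 stood in p1 columns 13-24, and in p2 0 of the 3 Il4 cells had Gata3. Cxcr5 was in 28.9% of Gata3 cells and 48.2% of the others (odds ratio 0.451). Prdm1, the gene of BLIMP1, which opposes BCL6, divided Cxcr5 as 35% and 51.4% (0.531). For Gata3 and for Prdm1 the direction held in each set, with overlapping intervals in each.

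**Figure D5:**
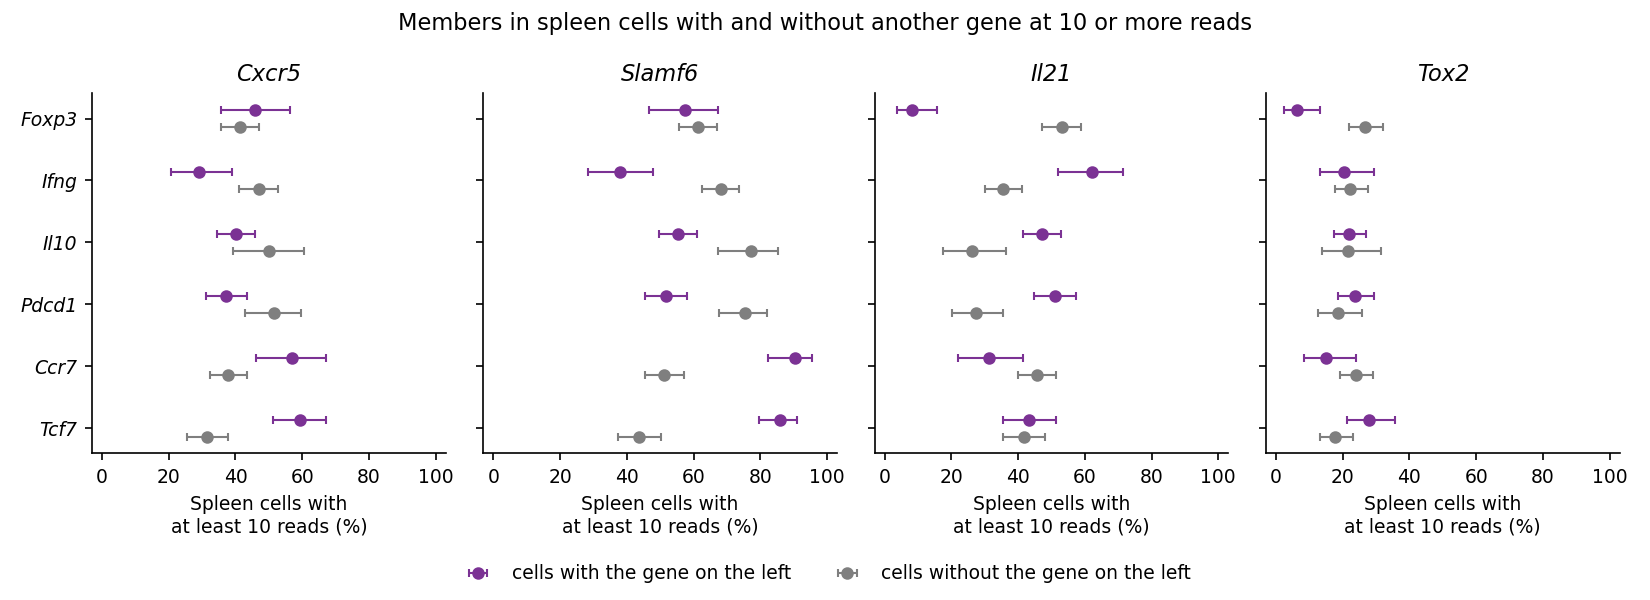
Percent of spleen cells with at least 10 reads of Cxcr5, Slamf6, Il21 or Tox2 (panels), among cells with (purple) and without (grey) the gene named on the left, with exact 95% binomial intervals. Il21 is at 8.33% in cells with Foxp3 and 62.1% in cells with Ifng, and Slamf6 is at 86% in cells with Tcf7 and 43.8% in those without. All shares are pooled over the well sets.

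The genes whose level was most like that of a member were found from the mean correlation of log2(CPM + 1) over the 3 spleen sets, across cells that share a library preparation. For Slamf6 the first was Tcf7 (mean r 0.45, from 0.39 to 0.51), the gene of TCF1, which acts before BCL6 in follicular helper cells, followed by the ribosomal protein genes Rps24 (0.34) and Rpl13 (0.33). For Cxcr5 it was Tcf7 (0.33), then Il6st (0.30), which encodes the gp130 chain of the IL-6 receptor, and Synpo (0.29). Il21 was nearest to Eea1 (0.34), Lpar3 (0.34) and Pvrl1 (0.32), and Icos to Tnfrsf1b (0.32) and Gm14005 (0.31). Tox2 (Tnfsf8, 0.26), Sh2d1a (Fam65b, 0.25) and Il4 (A430107P09Rik, 0.27) had no nearer gene. Tcf7 was in 157 spleen cells, of which 135 (86%, 79.6 to 91%) had Slamf6 and 93 (59.2%, 51.1 to 67%) had Cxcr5. Of the 242 other spleen cells, 43.8% had Slamf6 and 31.4% had Cxcr5. This comparison with Tcf7 was chosen after its values were seen.

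Other genes of the follicular program were lower in SI more often than higher. Of 24 such genes, all tested, 12 were lower and 0 higher, beside 18.1% and 9.12% of all tested genes. Their median log2 ratio was -1.20, beside -0.25 for all tested genes. By mean alone, 17 lay below all spleen sets and 4 above them. The list was chosen with earlier results of these data known. Tcf7 had 2.27 CPM in SI and 380 CPM in spleen (log2 ratio -6.87). Il6ra, the IL-6 receptor, had 0.0222 and 116 CPM (-6.84), and Btla, an inhibitory receptor, 14.4 and 364 CPM (-4.56). Id3, an inhibitor of E proteins, was at 0 in SI and 17.7 CPM in spleen. In spleen 8 of the 24 were joined with Cxcr5, beside 1.9% of all genes, and 0 were apart. These were Btla, Cd200, Maf, Tcf7, Il6ra, Il6st, Pou2af1 and Izumo1r, read under its older symbol Folr4. The odds ratio of Izumo1r was 3.91. The other genes of the list passed neither rule, and the lowest odds ratios were those of Cd40lg (0.521), Batf (0.551) and Pdcd1 (0.615).

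Genes that oppose the follicular program or lead cells out of lymphoid tissue gave 5 lower and 2 higher of 15, with a median log2 ratio of 0.09. Over all tested genes 18.1% were lower and 9.12% higher, and every count of genes lower or higher in this paragraph stands beside these shares. The lower ones with the largest ratios were Ccr7 (-7.91), S1pr1 (a receptor for exit into lymph, -6.47), Klf2 (the factor that drives S1pr1, -4.26) and Il2ra (a chain of the IL-2 receptor, -2.08). The 2 higher ones were Id2 (1.75) and Runx3 (1.11), and in spleen Id2 (odds ratio 0.177) and Selplg (0.323) were apart from Cxcr5, while Gpr183 (2.09) and Ccr7 (2.11) were joined with it. Of 6 type 2 genes tested, 3 were lower (Ccr8, -4.44; Ccr4, -1.87; Gata3, -1.06) and 0 higher. Il5 was in 10 spleen cells, of which 2 also had Il4 and 8 had Tox2, a comparison chosen after its values were seen. Of 6 genes of follicular regulatory cells, Il2ra (-2.08) and Ikzf2 (-1.98) were lower and Ctla4 (1.13) was higher in SI, and Ikzf2 was joined with Cxcr5 (odds ratio 2.02).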

How the data were processed

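The study sorted IL-10 eGFP+ CD4+ T cells singly and sequenced whole transcripts of each cell by SMART-seq2, in which reads carry no molecular identifiers. The authors aligned paired-end reads with STAR (2-pass) and deposited raw read counts per gene and cell. The submitters' processing notes name build mm10 and the study's methods name Mm8, and the counting tool and annotation are not given in the sources used here. No row of the counts was given a position. Members and lists were chosen with earlier results of these data known.

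Cells more than 3 median absolute deviations below their tissue's median log reads or log genes were left out (limits 170584 reads in SI and 161898 in spleen), as were cells that cyclone (in scran 1.30.0) placed in S or G2M. Kept cells held 162801 to 622997 reads. No 2 cells had identical counts. CPM was computed without the eGFP row, with a pseudocount of 1 CPM, in Python 3.11.15 (numpy 2.4.6, scipy 1.17.1), and edgeR 4.0.16 and DESeq2 1.42.0 gave alternative scalings. Each tissue is 1 sample, so no test between tissues was run. PCR reads are not independent molecules, so intervals and the limit for a share of 0 (3 cells of the total) cover counting error only. Because cells were sorted into wells, no doublet caller was run, and markers of other cell types were read instead. The rules for calls were run on simulated counts with large fold changes, in widely read genes and without differences between spleen sets. That run does not cover rarely read genes such as Il4 and Bcl6, or sets that differ.

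Named were all members, from each of the 5 lists of T cell programs (lists of other cell types not included) the 4 genes with the largest log2 ratio among those with SI outside the 3 spleen sets, preset partner genes and the 3 genes most alike. Values of 2 genes picked by this rule are not given, and 1 of them was taken out of its list with the values already known. Genes named beyond this rule, in counts, as joined genes and by their odds ratios, were chosen after their values were seen. Alternatives were other pseudocounts, scalings, read minimums, cell limits and depths.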

Additional observations from a re-analysis of the deposited data

Results flagged for a closer look

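Cells called cycling were left out of the comparisons, and some members were read in them beyond what a count of 0 would allow, 8.82% of 34 SI cells and 2.08% of 144 spleen cells. In cycling spleen cells, 23.6% (interval 16.9 to 31.4%) had Cxcr5, below the 42.4% (37.5 to 47.4%) of kept spleen cells. Slamf6 was in 63.9%, Sh2d1a in 59.7%, Il21 in 36.8%, Tox2 in 25% and Icos in 95.8% of them. In cycling SI cells, Tox2 was in 58.8%, Sh2d1a in 35.3%, Il21 in 20.6%, Slamf6 in 17.6% and Icos in 97.1%, and Cxcr5 and Il4 were in 0. Bcl6, in 5.88% of the SI and 1.39% of the spleen cells, was within these limits.

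The eGFP row of the reporter was used in no comparison. A read of it was found in 50.9% (43.1 to 58.6%) of spleen cells with Cxcr5 and in 61.7% (55.1 to 68%) of the others, with overlapping intervals.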

How the results depend on the processing

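Of 104 log2 ratios of members under other settings, all kept their sign, and 14 lay outside the range over the spleen sets. Settings that only chose among the spleen sets could not leave this range, so the count of 14 says nothing of them. Added after seeing the data were leaving out each spleen set, cells with markers of other types and, for levels and members per cell, cells with a Foxp3 read. With a pseudocount of 10 CPM, 1 member was higher in SI in place of 2, 889 genes were lower in place of 2042 and 487 higher in place of 1027, and 1 member in place of 2 differed between the p1 sets. Without the 5 highest cells 1 member and 586 genes were higher in SI, and 2 members in place of 1 differed between p2 and p1 columns 13-24. Without cells with a Foxp3 read 1 member was higher, and with no limit on cells 1323 genes were lower. Counting from 1 read, the members per cell were 2.76 in SI and 3.82 in spleen, and from 30 reads 1.88 and 2.85, in place of 2.32 and 3.23. From 30 reads 2 pairs of members were joined in place of 4 and 0 apart in place of 1, with cells thinned to 200000 reads 1 was joined and 0 apart, and 0 were apart without cells with markers of other types. Leaving out cells with a Foxp3 read was planned for these pairs and gave 6 joined and 1 apart. Apart from the settings themselves, the cause of these shifts was not tested. Sh2d1a passed the rule as lower against p2 alone (-1.16), without p1 columns 13-24 (-1.06) and without the 5 highest cells (-1.20). No paired analysis was possible because the wells carry no shared replicate numbers and no test was run. With 1 sample per tissue, differences between animals cannot be measured, and on p2 the tissue and the well position cannot be told apart.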

Other observations

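Ascl2 had 2 reads in all 764 cells. Both were in 1 SI cell left out for its low depth of 49359 reads.

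Some members divided the cells that carry Havcr2, the gene of the checkpoint receptor TIM-3, a comparison chosen after its values were seen. Cxcr5 was in 22.1% (14.2 to 31.8%) of 95 spleen cells with Havcr2 and in 48.7% (42.9 to 54.5%) of the others, and Slamf6 in 36.8% (27.2 to 47.4%) and 67.8% (62.2 to 73%). For both genes the direction held in every set, and the intervals of a set were separate only in p1 columns 13-24. There Cxcr5 was in 10.9% and 47.5%, and Slamf6 in 30.4% and 60.6%. Il21 was in a larger share of Havcr2 cells in p1 columns 1-12 (40% and 28.4%) and a smaller one in p1 columns 13-24 (52.2% and 60.6%) and p2 (31.6% and 36.9%), with overlapping intervals in each set.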
